A study of Mus musculus with 4 samples.

Results

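The heat shock proteins and chaperonins of mouse regulatory T cells, 81 genes of the 50600 features counted, were described by their RNA levels in 4 libraries. A gene was a member if it was protein-coding in GENCODE mouse release 21 and its name began with Hsp90, with Hspa, Hspb, Hspd, Hspe or Hsph and a digit, with Dnaja, Dnajb or Dnajc and a digit, or with Cct and a digit from 2 to 8, or if it was Tcp1. The rule used names alone and no measured value. It kept 3 HSP90 genes, 14 HSP70 and HSP110 genes, 8 small heat shock protein genes, the 2 genes of the mitochondrial chaperonin, 45 J-protein genes and 9 genes of the cytosolic chaperonin, out of 21764 protein-coding genes.

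Regulatory T cells are CD4+ T cells that carry the transcription factor Foxp3 and restrain other immune cells. All 4 libraries belonged to a single group, primary regulatory T cells from strain C57BL/6NJ, numbered as biological replicates 1 to 4, with sex not collected, age unknown and no treated or control arm. One donor identifier covers all 4, a protocol for CD4+ T cell differentiation is linked to each, and the names of the authors' output contain "activated" and "24h". The assay is called total RNA-seq while the linked library protocol is one for polyA+ RNA. Nothing in the labels assigns the libraries to separate animals or cultures, so every SD and p-value below measures the spread between these 4 libraries and no more.

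Molecular chaperones bind proteins that are not yet folded or that have lost their fold. HSP70 proteins clamp onto exposed stretches in a cycle driven by ATP, J proteins bring substrates and start ATP hydrolysis, and exchange factors, among them the HSP110 proteins, reset the cycle. HSP90 acts later, on nearly folded clients such as kinases and steroid receptors, while the chaperonins enclose substrates in a ring, TRiC for actin and tubulin in the cytosol and HSP60 with its lid HSP10 in mitochondria. Part of the network is made at all times and part is induced by heat or other proteotoxic stress through heat shock factor 1.

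The libraries held 38590127, 44357436, 48312918 and 93035969 fragments assigned to genes for replicates 1 to 4, and a count of 0 allows up to 3 fragments, or 0.0777 to 0.0322 CPM, the count scaled to equal library totals. Levels are given as TPM, which is the count divided by gene length and scaled to a common total in each library. Replicate 1 stood apart: the locus Gm42418, which overlaps ribosomal RNA, took 2.04% of its fragments against 0.0704% to 0.175% elsewhere, and protein-coding genes made 88.2% of its TPM against 95.6% to 96.6%. Xist was at 100.4 and 88.7 TPM in replicates 1 and 2 and below 1 TPM in the others, where the Y-linked gene Ddx3y was at 46.1 and 40.6 TPM, against 0.159 and 0.101 TPM in replicates 1 and 2. These values go against a single donor for all 4 libraries, while whether the libraries within each pair came from separate animals is not stated. The summed T cell markers (Cd3e, Cd3d, Cd4, Trac, Lck) were at 2956 to 3454 TPM and those of regulatory T cells (Foxp3, Il2ra, Ctla4, Tnfrsf18, Ikzf2) at 1349 to 1585 TPM, although Ikzf2 itself reached only 4.32 ± 0.788 TPM (SD, n = 4). Summed markers of other cells were at 2.96 to 4.66 TPM for B cells, 0.0586 to 0.349 TPM for myeloid cells (2 of 5 at 0) and 1.45 to 3.22 TPM for stromal and erythroid cells (2 of 5 at 0). Those of CD8 T and NK cells summed to 116.3 to 129 TPM, nearly all of it Nkg7 at 100.6 ± 3.64 and Cd8b1 at 21.8 ± 4.19 TPM, with Cd8a at 1.11 TPM and Ncr1 at 0.

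Chaperone genes were more often detected, and at higher levels, than protein-coding genes at large. Of the 81 members, 63 had a mean of at least 1 TPM, 52 of at least 10 TPM and 26 of at least 100 TPM. Over all 21764 protein-coding genes the shares at these levels were 47.7%, 36.2% and 9.43%. The median of the members' mean levels was 23.5 TPM against 0.520 TPM for all protein-coding genes. No fragment was counted in any library for 9 members, Cct8l1, Dnajb7, Dnajb8, Dnajc5b, Dnajc5g, Hspb2, Hspb3, Hspb8 and Hspb9. Over all protein-coding genes, 35.6% had no fragment. These are descriptions of a list of known, widely expressed genes and carry no test.

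Together the members held 2.11%, 2.43%, 2.37% and 2.37% of library TPM in replicates 1 to 4 (2.32 ± 0.145%, SD). Replicate 1 was below the other 3, which lay close together. With TPM taken over protein-coding genes alone, which leaves out the ribosomal locus, the shares were 2.39%, 2.54%, 2.46% and 2.46%, and replicate 1 was still the lowest but nearer to the rest. The HSP90 genes supplied 0.920% of library TPM and the cytosolic chaperonin members 0.499%. The ring subunit Cct6a, which is no member, was at 723 TPM and is not in that share. The HSP70 and HSP110 genes supplied 0.452%, the J-protein genes 0.229%, the mitochondrial chaperonin 0.219% and the small heat shock proteins 0.00220%. The 45 J-protein genes were the most numerous family and held a smaller share of the RNA than the 3 HSP90 genes.

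**Figure D1:**
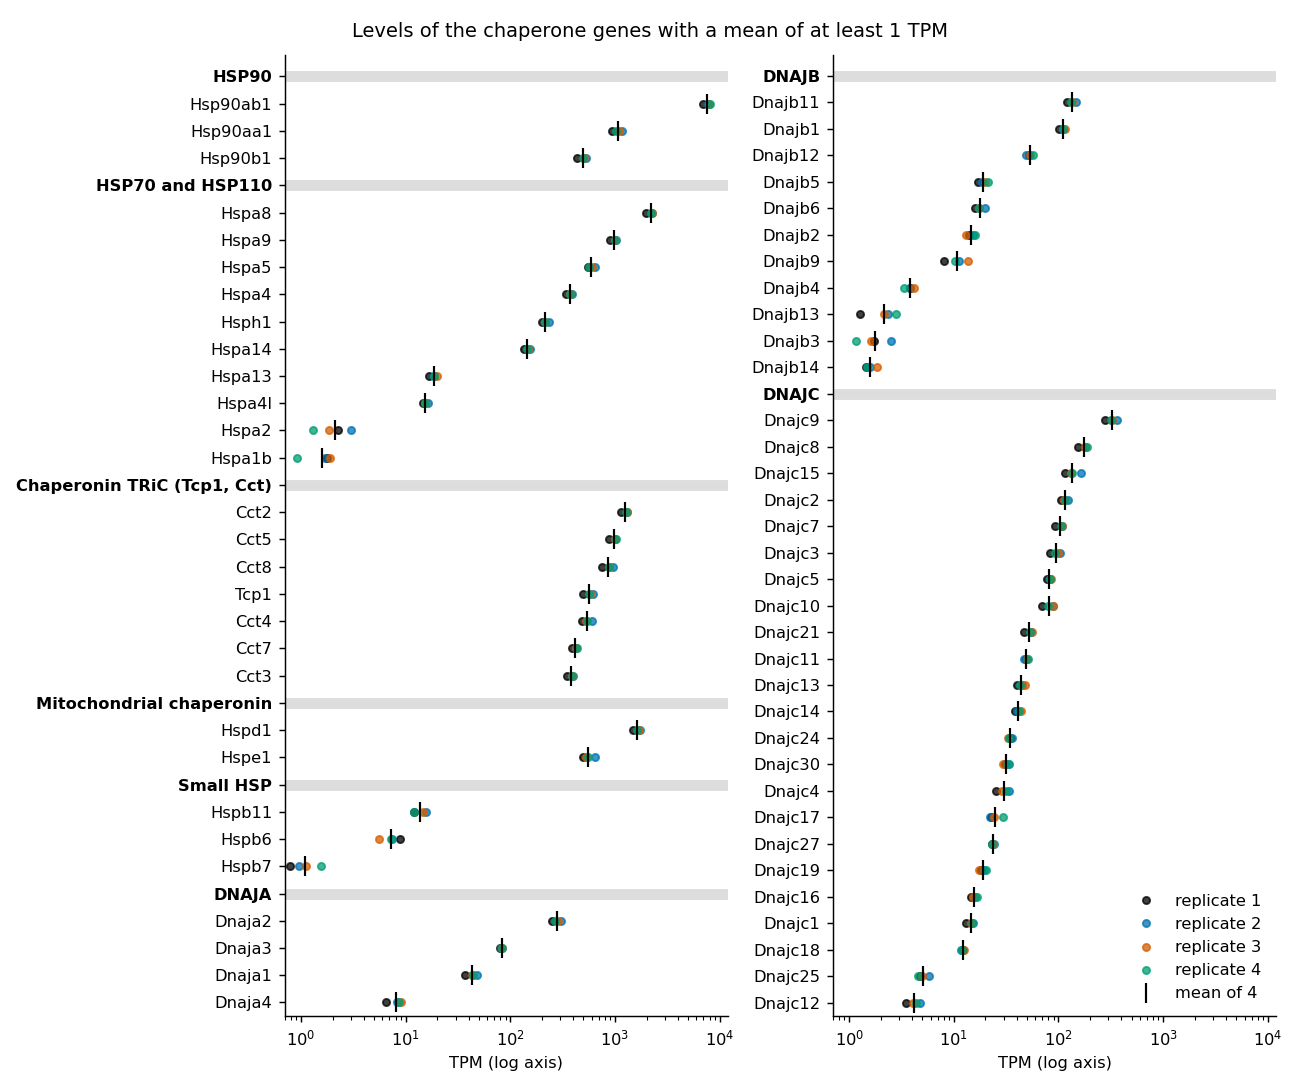
Level of each of the 63 chaperone genes with a mean of at least 1 TPM, on a logarithmic TPM axis, with 1 point per library, coloured by replicate, and a bar at the mean of 4. Hsp90ab1 stands alone near 7650.4 TPM. The TRiC ring subunits, without Cct6a, which is no member, run from 379 TPM (Cct3) to 1250.1 TPM (Cct2). The J-protein genes run from 322 TPM (Dnajc9) to below 2 TPM.

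Hsp90ab1, which encodes the constitutive cytosolic HSP90, was the most abundant chaperone RNA, at 7003, 7708, 7826 and 8065 TPM (7650.4 ± 456). It ranked 4 among all protein-coding genes (ENSMUSG00000023944.14, chr17:45567775-45573271, minus strand, mm10). Replicate 1 was the lowest and replicate 4 the highest. It made 83.2 ± 0.872% of HSP90 TPM and 33.0 ± 0.931% of all member TPM. Hsp90aa1, the stress-inducible cytosolic paralog, was at 940.1, 1159, 1098 and 1032 TPM (1057.6 ± 93.9, chr12:110690605-110702728, minus strand), and its libraries did not overlap with those of Hsp90ab1. The ER paralog Hsp90b1, also called GRP94, was at 432.2, 525.2, 505.6 and 494.6 TPM (489 ± 40.2).

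Hsp90ab1 exceeded Hsp90aa1 in 4 of 4 libraries, by 2.86 ± 0.10 on the log2 TPM scale, a ratio of 7.25 that ranged from 6.65 to 7.81. An exact permutation test that flips signs, two-sided, cannot give less than p = 0.125 with 4 libraries, and each of the 5 ratios tested in this way had that p before and after Benjamini-Hochberg adjustment, so no ratio here could pass 0.05. Hsp90aa1 shares 47.5% of its 50-base stretches with other loci, mostly the processed pseudogene Gm12346, against 3.44% for Hsp90ab1, and reads that align to several places were not requested in the counting. When each length was multiplied by the gene's share of 50-base stretches found at no other locus, the log2 ratio was 1.98, still with Hsp90ab1 higher. Gm12346 itself received 173, 277, 227 and 429 fragments against 44685 to 111881 for Hsp90aa1.

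The listed cochaperones that load and release HSP90 clients were all present. All 12 genes of that list had at least 10 TPM and 9 had at least 100 TPM. The highest were Stip1, which passes clients from HSP70 to HSP90, at 941 ± 58.9 TPM, Ahsa1, which speeds HSP90's ATPase, at 792 ± 43.3 TPM, and the immunophilin Fkbp4 at 741 ± 21.04 TPM. The immunophilin Fkbp5, known as a glucocorticoid-induced gene, was the lowest at 56.7 ± 1.83 TPM.

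Among the 14 HSP70 and HSP110 genes, 10 had at least 1 TPM, 8 at least 10 TPM and 6 at least 100 TPM. Hspa8, the constitutive cytosolic HSP70 (HSC70, chr9:40800984-40810087, plus strand), led with 1994, 2276, 2239 and 2230 TPM (2184.9 ± 129) and made 48.3 ± 0.456% of the family. Replicate 1 lay below the other 3, which differed little. Hspa9, the mitochondrial HSP70, was at 889.3, 1027, 1010 and 998.8 TPM (981 ± 62.3). Hspa5, the ER HSP70 known as BiP, was at 553.5, 637.0, 604.7 and 562.6 TPM (589 ± 38.7), with replicate 2 the highest on this scale and over protein-coding TPM alone (627.8, 666.6, 625.7 and 582.5). The exchange factors Hspa4 and Hsph1, both HSP110 proteins, were at 368 ± 21.4 and 215 ± 13.1 TPM, and Hspa14, a ribosome-associated HSP70, at 145 ± 8.02 TPM.

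Hspa8 was higher than Hspa9 in 4 of 4 libraries by 1.16 ± 0.01 on the log2 TPM scale (ratio 2.23, range 2.22 to 2.24), the narrowest spread of the 5 ratios. Hspa8 exceeded Hspa5 in 4 of 4 libraries by 1.89 ± 0.07 (ratio 3.71, range 3.57 to 3.96). Both ratios depended on the length used. With the length of the principal transcript they were 1.63 and 2.53 on the log2 scale. With the length multiplied by the share of 50-base stretches found at no other locus they were 1.78 and 2.56. Hspa8 shares 37.0% of its 50-base stretches with other loci, and its processed pseudogene Gm15459 received 777, 867, 875 and 1895 fragments against 103708 to 264365 for Hspa8.

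The stress-inducible HSP70 genes were at the other end of the family. Hspa1b was at 1.77, 1.69, 1.91 and 0.906 TPM (60, 63, 75 and 70 fragments), with replicate 4 the lowest. Hspa1a was at 0.0836, 0.761, 0.216 and 0.220 TPM (3, 30, 9 and 18 fragments), with replicate 2 the highest. These 2 genes are near-identical neighbours on chromosome 17, and 62.3% of the 50-base stretches of Hspa1b and 60.4% of those of Hspa1a also occur at another locus, so their levels are uncertain and the split between them more so. The antisense gene Gm10501, which shares some of the same sequence, received 57, 71, 108 and 177 fragments. Of the remaining members, Hspa13 was at 18.5 TPM, the HSP110 gene Hspa4l at 15.4 ± 0.697 TPM and the germ cell HSP70 Hspa2 at 2.11 TPM, while Hspa12a, Hspa12b and Hspa1l were at 0.313, 0.0254 and 0.00367 TPM.

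The sequences just before Hspa1a and Hspa1b show how alike the pair is. They are given 5′ to 3′ on the minus strand from RefSeq (GRCm38.p6), chr17:34972157-34972406 for Hspa1a and chr17:34959239-34959488 for Hspa1b, and 247 of the 250 positions were the same and 3 differed. Capitals mark 2 overlapping matches, each with up to 1 mismatch, to the heat shock element, which was searched on both strands as GAA, TTC and GAA with 2 bases of any kind between each.
Hspa1a: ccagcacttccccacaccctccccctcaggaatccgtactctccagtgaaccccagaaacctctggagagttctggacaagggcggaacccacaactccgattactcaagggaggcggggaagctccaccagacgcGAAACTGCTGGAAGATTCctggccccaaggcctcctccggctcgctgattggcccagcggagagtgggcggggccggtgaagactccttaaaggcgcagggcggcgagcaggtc
Hspa1b: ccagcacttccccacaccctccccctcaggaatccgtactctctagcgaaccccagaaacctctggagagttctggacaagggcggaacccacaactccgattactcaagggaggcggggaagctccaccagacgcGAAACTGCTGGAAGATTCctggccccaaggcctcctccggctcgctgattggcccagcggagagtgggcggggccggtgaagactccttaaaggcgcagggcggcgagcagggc

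The listed HSP70 exchange factors and cochaperones outside the name rule were present throughout, with 13 of 13 at 10 TPM or more and 6 at 100 TPM or more. Bag1, a nucleotide exchange factor, was at 422 ± 39.5 TPM, St13, also called HIP, at 245 ± 14.6 TPM and Hspbp1 at 235 ± 18.3 TPM. Bag3, a stress-induced member of the same family that acts in autophagy, was the lowest at 10.8 ± 0.645 TPM.

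**Figure D2:**
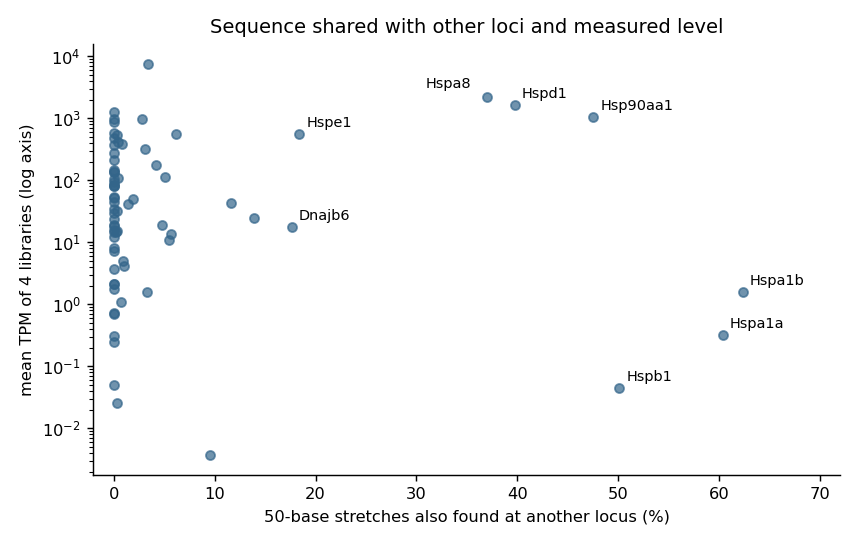
Mean TPM of the members with any fragment, on a logarithmic axis, against the percentage of each gene's 50-base stretches that also occur at another locus, 1 point per gene. Hspa8, Hspd1 and Hsp90aa1 were at 2184.9, 1638.1 and 1057.6 TPM with 37.0% to 47.5% of their stretches found elsewhere, while Hspa1b, Hspa1a and Hspb1, at 50.1% to 62.3%, were below 2 TPM.

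J proteins were many and mostly moderate in level. Of the 45, 38 had at least 1 TPM, 31 at least 10 TPM and 8 at least 100 TPM, and 4 had no fragment. Among the 4 type A genes, which resemble the bacterial DnaJ most closely, Dnaja2 was at 277 ± 22.4 TPM, the mitochondrial Dnaja3 at 82.5 ± 1.90 TPM and Dnaja1 at 42.7 ± 4.59 TPM. The stress-inducible Dnaja4 was at 6.50, 8.23, 9.03 and 8.71 TPM, with replicate 1 the lowest. Of the 13 type B genes, 11 had at least 1 TPM and 2 at least 100 TPM. Dnajb11, a partner of BiP in the ER, was at 134 ± 11.1 TPM, and Dnajb12, which sits in the ER membrane, at 53.0 ± 3.55 TPM. Dnajb1, the stress-inducible J protein known as HSP40, was at 101.9, 111.7, 116.3 and 109.7 TPM (110 ± 5.99). Replicate 1 was the lowest of these, but over protein-coding TPM alone Dnajb1 was at 115.6, 116.9, 120.3 and 113.6 and replicate 4 was the lowest.

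The 28 type C genes include J proteins with specialised tasks, and 5 of them had at least 100 TPM. Dnajc9, a chaperone of histones H3 and H4, was the highest J-protein gene at 279.3, 362.5, 324.8 and 319.9 TPM (322 ± 34.0), with replicate 1 the lowest and replicate 2 the highest. Dnajc8, associated with the splicing machinery, was at 175 ± 13.5 TPM, the ribosome-bound Dnajc2 at 115 ± 7.84 TPM and Dnajc7, which binds both HSP70 and HSP90, at 104 ± 7.38 TPM. Dnajc15, of the mitochondrial import motor, was at 114.9, 163.7, 130.5 and 134.8 TPM (136 ± 20.4). Its exons used for counting span 648 bases, while the principal transcript of release 21 spans 6193 bases. Division by the latter gives 10.3 TPM, but fragments over most of those bases were not counted, so that value is not a comparable level. Dnajc6, a clathrin uncoating factor (auxilin) of neurons, was at 0.722 ± 0.294 TPM.

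The chaperones of the ER were led by the HSP70 and HSP90 paralogs already described. The list used for this compartment holds 11 members and is not complete, as it leaves out Dnajb12 of the ER membrane. Of the 11 listed, 10 had at least 1 TPM, 9 at least 10 TPM and 3, Hspa5, Hsp90b1 and Dnajb11, at least 100 TPM. Dnajc3, which also inhibits the kinase PERK, was at 95.0 ± 8.48 TPM and the disulfide reductase Dnajc10 at 81.6 ± 9.16 TPM. Dnajb9, a J protein that is strongly induced by unfolded proteins in the ER, was at 8.14, 11.2, 13.7 and 10.3 TPM, with replicate 1 the lowest and replicate 3 the highest. In a chosen list of other ER folding genes, which is not complete either, 9 of 9 were at 100 TPM or more. The lectin chaperone Calr was at 1115 ± 51.2 TPM, the disulfide isomerases P4hb at 665 ± 30.1 and Pdia3 at 599 ± 44.3 TPM. Manf was the lowest of the list at 121 ± 14.7 TPM.

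The ER stress element, CCAAT and CCACG with 9 bases of any kind between them, was searched on both strands from 250 bases before to 50 after each RefSeq start. It occurred in 3 of the 66 members with a promoter in the table (4.55%) and in 28 of 16469 protein-coding genes (0.170%). Members without one, among them Hspa13 and Dnajc22 of the ER list, were not searched. The 3 with the element were Hspa5, Hsp90b1, which had 2 matches, and Dnajc3. Of these, Hspa5 and Hsp90b1 are shown with the matches in capitals, from GRCm38.p6, as chr2:34772020-34772048 on the plus strand and chr10:86705510-86705694 on the minus strand.
Hspa5: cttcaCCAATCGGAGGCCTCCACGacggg
Hsp90b1: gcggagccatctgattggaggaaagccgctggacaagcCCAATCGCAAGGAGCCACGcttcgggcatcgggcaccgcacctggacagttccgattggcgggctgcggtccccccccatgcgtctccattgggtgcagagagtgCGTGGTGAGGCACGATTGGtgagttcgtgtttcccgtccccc
The members with this element were at 589, 489 and 95.0 TPM. A match is a description of the letters and not evidence of binding.

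The mitochondrial chaperonin was abundant. Hspd1, which encodes the HSP60 ring (chr1:55077835-55088243, minus strand), was at 1481, 1742, 1697 and 1632 TPM (1638.1 ± 114). Hspe1, which encodes the HSP10 lid (chr1:55088132-55091307, plus strand), was at 495.4, 637.6, 532.6 and 549.6 TPM (554 ± 60.2). Replicate 2 was the highest for both genes. Replicate 1 was the lowest for both, but over protein-coding TPM alone Hspe1 was at 561.9, 667.2, 551.1 and 569.1 and replicate 3 was the lowest. Hspd1 exceeded Hspe1 in 4 of 4 libraries by 1.57 ± 0.09 on the log2 TPM scale (ratio 2.97, range 2.73 to 3.19). The value moved with the length, to 0.76 with the principal transcript. It moved to 2.01 with the length multiplied by the share of 50-base stretches found at no other locus. Of the 50-base stretches, 39.7% for Hspd1 and 18.4% for Hspe1 occur elsewhere.

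Hspd1 and Hspe1 lie head to head and their starts overlap, so 1 stretch lies in the promoter of both. The exact heat shock element occurred in 4 of the 66 members with a promoter (6.06%), namely Hspd1, Hspe1, Hsph1 and Dnajb6, and in 91 of 16469 protein-coding genes (0.553%). With up to 1 mismatch it occurred in 17 members (25.8%) and in 7.40% of protein-coding genes. Members with no promoter sequence at hand, among them Hsp90ab1, Hspa8, Hsp90aa1, Hspa9 and Cct4, were not searched. The shared stretch is shown on the plus strand, in the direction of Hspe1, from chr1:55088056-55088084, with 2 overlapping matches in capitals, 1 on each strand. The match of Dnajb6 is shown from chr5:29735844-29735872 on the plus strand and that of Hsph1, which lies after the start, from chr5:149636280-149636308 on the minus strand.
Hspe1: ccgTTCTAGAACCTTCCGGAAggccccgc
Dnajb6: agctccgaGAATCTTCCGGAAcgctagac
Hsph1: gctgcagaTTCTGGAAAGTTCtcctcagt
The 4 genes with an exact match ran from 17.7 ± 1.59 TPM (Dnajb6) to 1638.1 TPM (Hspd1), and Hspa1a and Hspa1b, which have the inexact matches printed above, were below 2 TPM.

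Other mitochondrial folding and quality control genes were also present. Of 10 measured mitochondrial members, 9 had at least 10 TPM and 4 at least 100 TPM. Of those listed outside the name rule, 7 of 7 had at least 10 TPM and 5 at least 100 TPM. Trap1, the HSP90 of mitochondria, was at 308 ± 14.1 TPM, the protease Lonp1 at 295 ± 21.7 TPM, the protease subunit Clpp at 211 ± 17.8 TPM and the disaggregase Clpb, the lowest, at 23.1 ± 1.06 TPM.

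The small heat shock proteins, which hold unfolded proteins without ATP, were at low levels or had no fragment. Of 8 genes, 3 had at least 1 TPM, 1 had at least 10 TPM and 4 had no fragment. Hspb11, also known as the intraflagellar transport protein IFT25, was at 12.0, 15.7, 14.7 and 12.0 TPM (13.6 ± 1.88). Hspb6, best known from muscle, was at 7.27 ± 1.37 TPM and the cardiac Hspb7 at 1.10 ± 0.329 TPM. Hspb1, the stress-inducible small heat shock protein, received 0, 0, 0 and 5 fragments in replicates 1 to 4. Of its stretches 50.1% also occur elsewhere, and its pseudogene Hsp25-ps1 received no fragment in any library.

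The ring of TRiC is built from 8 different subunits in equal number. All 8 RNAs had at least 100 TPM in every library. The rule covers 7 of them, and Cct6a, typed as a processed transcript in release 21, is added here for the ring and is no member. In TPM the order was Cct2 at 1250.1 ± 74.3, Cct5 at 974 ± 65.5, Cct8 at 863 ± 82.8, Cct6a at 723 ± 49.1, Tcp1 at 562 ± 52.0, Cct4 at 542 ± 46.9, Cct7 at 418 ± 18.6 and Cct3 at 379 ± 24.4. The highest over the lowest subunit was 3.31, 3.22, 3.36 and 3.31 in replicates 1 to 4 (3.30 ± 0.0602).

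The order and the spread depended on the lengths used. The exon union of Cct3 is 3.22 times and that of Cct7 2.78 times the principal transcript, against 1.31 times for Cct2. With the principal length, and TPM over protein-coding genes, the 7 members lay between 666 ± 42.4 (Cct4) and 1185 ± 22.2 (Cct2), Cct3 was at 887 ± 26.4 and Cct7 at 844 ± 2.16, and the ratio of highest to lowest was 1.78 ± 0.0942. In fragments with no division by length it was 1.41 ± 0.0743 over 8 subunits. Cct2 was the highest and Cct4 the lowest subunit by mean on both of these scales. The related Cct6b, of the testis, was at 0.247 TPM and Cct8l1 at 0.

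**Figure D3:**
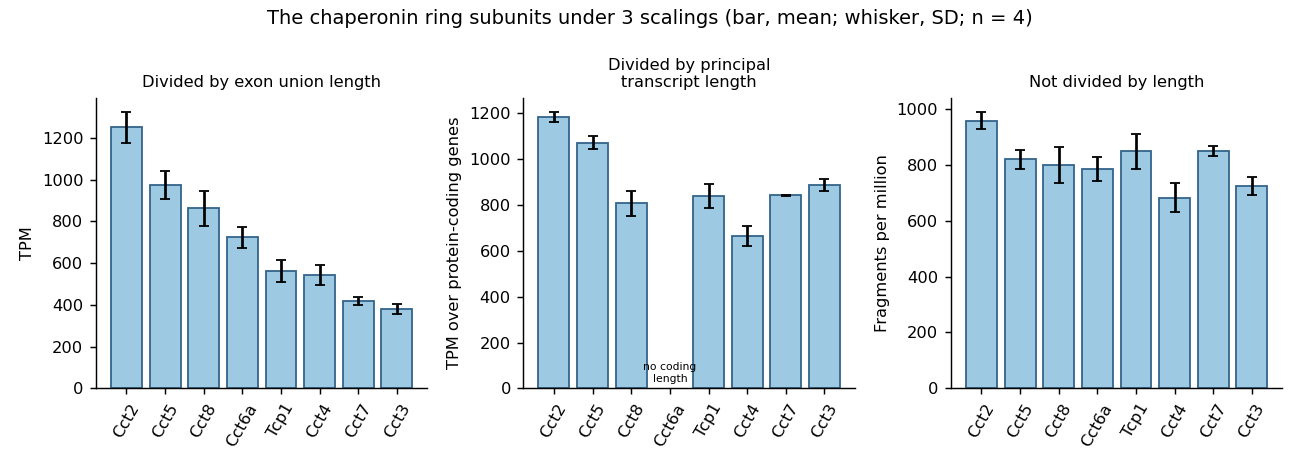
Levels of the 8 TRiC subunits under 3 scalings, each bar the mean of 4 libraries with its SD and each axis starting at 0: TPM by exon union length, TPM by principal transcript length over protein-coding genes (no bar for Cct6a), and fragments scaled to a common library total without regard to length. The range of 3.30 between the highest and the lowest bar on the left narrows to 1.78 in the middle and to 1.41 on the right.

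Prefoldin hands actin and tubulin chains to TRiC. The mean log2(TPM + 1) of the 8 ring subunits exceeded that of the prefoldin subunits by 2.33 ± 0.05 in 4 of 4 libraries, a ratio of 5.04 (range 4.82 to 5.25). Without division by length, the difference was 3.66. All 10 genes of the list of chaperonin partners had at least 10 TPM and 5 at least 100 TPM, led by Pfdn5 at 200.1 ± 3.59, Pfdn1 at 189 ± 11.5 and Pfdn6 at 181 ± 14.8 TPM, with Txndc9 the lowest at 24.2 ± 1.72 TPM.

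The 9 members known as stress-inducible in the cytosol did not share a level. They spanned from no fragment (Hspb8) over Hspb1, Hspa1a, Hspa1b, Dnaja4 and Hspa4l to Dnajb1, Hsph1 and Hsp90aa1, and 6 of the 9 had at least 1 TPM, 4 at least 10 TPM and 3 at least 100 TPM. The transcription factor of that response, Hsf1, was at 153.4, 151.1, 149.0 and 171.7 TPM (156 ± 10.4), with replicate 4 the highest. Hsbp1, which binds Hsf1, was at 69.9 ± 6.29 TPM, Hsf2 at 8.46 ± 0.932 TPM and Hsf5, the lowest of the 5 regulators, at 0.0334 TPM. Of 17 members known mainly from other tissues, 6 had at least 1 TPM, 1 at least 10 TPM (Dnajb5, at 19.1 ± 1.74) and 7 had no fragment.

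Neighbours in level often lay within each other's spread. In the order of the 26 members with at least 100 TPM, 17 of the 25 neighbouring pairs overlapped between libraries. Within single libraries the order was steadier: 11 of these 17 pairs kept it in 4 of 4 libraries and 6 did not, namely Hspa9 and Cct5, Tcp1 and Hspe1, Hspe1 and Cct4, Hspa14 and Dnajc15, Dnajc15 and Dnajb11, and Dnajc2 and Dnajb1. The 8 gaps without overlap followed Hsp90ab1, Hspa8, Hspd1, Cct8, Hsp90b1, Dnaja2, Hsph1 and Dnajc8. When levels were recomputed with principal transcript lengths, 12 of the 52 members with at least 10 TPM rose more than 1.5 times (23.1%, against 16.6% of all such genes). Only 1, Dnajc15, fell by more than that (all such genes 3.24%), and most of its principal transcript was not among the exons counted.

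No chaperone gene passed the test for varying between libraries beyond genes of like abundance. The test was built on edgeR's quasi-likelihood fit, with Benjamini-Hochberg adjustment. At 0.05 it called 0 of the 66 members that passed the count filter, against 58 of 12396 genes (0.468%). At an unadjusted p under 0.05 the count was 0 of 66 against 661 of 12396 (5.33%), and DESeq2 marked 0 of 66 members as dispersion outliers against 69 of 12396 genes (0.557%). The lowest values among the members in the edgeR fit were those of Hspe1 (adjusted p = 0.943), Dnajc15 (0.965), Dnajc6 (0.974), Dnaja1 (0.977) and Dnajc10 (0.981). The coefficient of variation of TPM had a median of 6.91% over the 52 members with at least 10 TPM and of 7.22% over the 7868 protein-coding genes at that level. The test and these coefficients treated the libraries as a single group. They therefore include any difference between the pair with high Xist and the pair with Ddx3y.

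How often replicate 1 was the lowest library depended on the scaling. By TPM it was so for 42 of the 52 members with at least 10 TPM (80.8%), where all such genes gave 61.0%. Over protein-coding TPM it was so for 25 of 52 (48.1%), where all gave 25.5%. The members' median log2 level relative to each gene's mean was -0.14, 0.07, 0.03 and 0.01 in replicates 1 to 4 by TPM. Over the 7868 protein-coding genes at that level it was -0.09, 0.02, 0.05 and 0.01. With protein-coding TPM the members' medians were -0.04, 0.05, -0.004 and -0.02, and those of all such genes 0.004, -0.002, 0.014 and -0.023. Replicate 1 is also the library with the largest share of ribosomal locus fragments and the fewest fragments, and the part of either in these values beyond the rescaling was not tested. Without replicate 1 the members held 2.39% of library TPM.

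**Figure D4:**
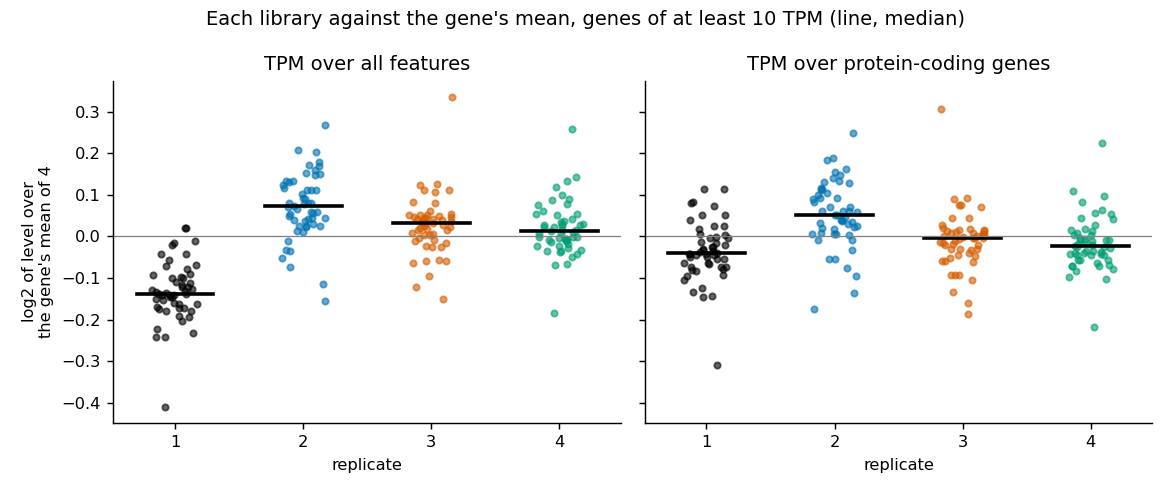
Log2 level of each of the 52 members with at least 10 TPM relative to that gene's mean of 4, by library, with TPM over all features on the left and over protein-coding genes on the right. Points are genes and bars are medians: the median of replicate 1 was -0.14 on the left and -0.04 on the right, and that of replicate 2 was 0.07 and 0.05. Over all protein-coding genes of at least 10 TPM, not plotted, these medians were -0.09 and 0.004 for replicate 1 and 0.02 and -0.002 for replicate 2.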

How the data were processed

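The deposited values are raw fragment counts per gene, made by the authors with featureCounts 1.4.6-p4, per the file headers, from pairs with both ends mapped, over the exons of each gene in GENCODE mouse release 13 with the strand setting at 2. The assembly is mm10, per the labels. For the aligner, only a tag in the alignment file's name was found. The command lines do not request reads that align to several places or overlap 2 genes. Same-strand exons of another gene covered at most 7.9% of any member's exon bases. Gene lengths are the exon unions in the deposited tables. Names and types came from GENCODE release 21 by gene ID (50376 of 50600 matched, 224 did not). The members and lists were chosen with earlier results of these data known.

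TPM was computed from counts and lengths. Spread between libraries was tested on all genes from a fit by edgeR 4.0.16 in R 4.3.3: filterByExpr, TMM and a quasi-likelihood fit of the intercept alone (robust prior). Each gene's deviance per degree of freedom was divided by its prior value and set against the F distribution's upper tail. The largest prior degrees of freedom in the robust fit were used for all genes. This p-value is not one edgeR itself reports, and it was adjusted by Benjamini-Hochberg, with the threshold at 0.05. DESeq2 1.42.0 was the alternative. The edgeR test was also run on counts simulated with a single setting of spread for all genes, and its power for these members was not measured. Ratios between members were tested by an exact sign-flip permutation test. The principal transcript length and the share of 50-base stretches found at another locus came from release 21 transcripts. Promoters are RefSeq windows of GRCm38.p6, found for 66 of 81 members by symbol. Members without a window were not searched for elements. No 2 libraries were duplicates (chi-square over its degrees of freedom 13.0 to 151). Floors cover counting error only.

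Values are printed for members of at least 100 TPM, the 3 highest of each family, the ring subunits, 9 stress-inducible members, the 5 lowest p-values and, of each outside list, the 3 highest and the lowest. Others were named after their values were seen.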

Additional observations from a re-analysis of the deposited data

Results flagged for a closer look

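In 5 of the 70 results tested, 1 library lay far from the other 3, by Dixon's ratio at its 95% critical value, which chance exceeds in about 1 group in 20. In all 5 it was replicate 1 and it was the lowest. Hspa8 was at 1994 TPM in replicate 1 and at 2230 to 2276 TPM in the others. The TRiC subunit Cct2 was at 1139 TPM against 1277 to 1295 TPM, Cct5 at 876.8 against 1001 to 1017 TPM, and Cct7 at 390.3 against 425.7 to 429.3 TPM. Dnajc7 was at 92.6 TPM against 106.8 to 107.9 TPM. With TPM over protein-coding genes alone, an alternative chosen after seeing the data, none of these 5 passed the critical value: Cct7 was at 442.7, 445.5, 442.2 and 444.5 in replicates 1 to 4, Cct2 at 1292 against 1322 to 1349, and Hspa8 at 2262 against 2309 to 2382. On that scale 6 of the 63 members tested passed it, Hspe1, Dnajc19, Dnajb6, Cct4, Hspa4 and Dnajb11. The library set apart was replicate 3, as the lowest, for Dnajc19 and replicate 2, as the highest, for each of the others. The share of all protein-coding genes that pass the critical value was not computed on either scale. Protein-coding genes made 88.2% of TPM in replicate 1 and 95.6% to 96.6% elsewhere.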

How the results depend on the processing

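Of the values recomputed under other settings, none changed direction or its side of a test's threshold, and 6 moved, meaning by more than 1.5 times for a count or 1 SD for a value with no test. The ratios, judged by direction and threshold alone, still changed in size with the length: on the log2 scale Hsp90ab1 over Hsp90aa1 reached 1.98, Hspd1 over Hspe1 0.76 to 2.41 and the ring over prefoldin 3.66. With FPKM in place of TPM, 57 members had at least 1, against 63. At least 10 was reached by 37, against 52, and at least 100 by 16, against 26. Within a library FPKM is TPM times a constant, and the members' share of the total stayed at 2.321%. The lower counts therefore reflect a stricter cutoff and not a change among the genes. Counts of all protein-coding genes at these FPKM cutoffs are not given. The ratio of the highest to the lowest TRiC subunit was 3.30 in TPM, 1.41 in fragments and 1.78 with the principal transcript length. The count of all genes that vary between libraries was 58 and became 110 with no abundance filter, 36 with a prior that is not robust, and 37 to 69 with 1 replicate left out, the lowest without replicate 1. Among the members it was 0 in every fit, and at an unadjusted p under 0.05 it was 1, 1, 0 and 2 of 66 without replicates 1 to 4, where all genes gave 5.58%, 5.75%, 5.42% and 5.45%. The alternatives with the principal transcript length and with the bases found at no other locus were chosen after seeing the data. No paired analysis was possible because there is 1 group, so no replicate number pairs samples across groups. Depth limits members under the floor of 3 fragments, such as Hspb1 in replicates 1 to 3, and shared sequence limits Hspa1a and Hspa1b.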
